A study of Mus musculus with 16 samples.

Results

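Lungs that had received 8 Gy were compared with lungs that had received 4 Gy, both given a control antibody (IgG), in bulk RNA sequencing of C57BL/6 mice whose lungs carried HKP1 tumours. The comparison was chosen by library title and holds 5 of the 16 libraries of the study: 3 that got 8 Gy and 2 that got 4 Gy, all with IgG. HKP1 is a mouse lung adenocarcinoma line, so every library mixes RNA from the tumour, the lung's own cells and infiltrating leukocytes. Beside these stood 3 libraries with IgG at 0 Gy, and 3 at 8 Gy, 3 at 4 Gy and 2 at 0 Gy with an antibody against PD-1, the inhibitory receptor that restrains T cells. All groups share the strain and the tumour, and each library pooled 3 to 4 mice whose lungs were taken 24 to 48 hours after irradiation, per the labels. The labels give no age, sex, tumour burden or irradiated volume, nor whether a group's pools came from different animals, and p-values therefore reflect only the variation among these pools. The study's title asks how irradiated club cells, the Scgb1a1-positive secretory cells of the airway, bear on checkpoint blockade, and the comparison asks what differs between the doses without that blockade.

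The lung surface is built from a few epithelial types. Club and ciliated cells line the airways. Flat alveolar type 1 cells carry gas exchange, and alveolar type 2 cells make surfactant and can replace type 1 cells after injury. Ionising radiation breaks DNA, activates p53 and its target Cdkn1a within hours, and releases nucleic acids that can switch on type I interferon genes. Injured and tumour-bearing lung also draws in monocytes and neutrophils, whose cytokines, arginase and suppressive surface molecules shape the response of T cells.

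In the 5 libraries 1 read was worth 0.0155 to 0.0216 CPM (reads per library set to a common total), which puts their depth near 46400000 to 64500000 reads and 3 reads, the least taken as detection, at 0.0465 to 0.0647 CPM. The labelled tissue was present in all 5. The sum of the 13 alveolar type 2 genes was 1833 to 2370 CPM at 8 Gy and 6283 to 15050 CPM at 4 Gy, with at most 0.422 CPM of the skeletal muscle gene Acta1 and 0.450 CPM of the liver gene Alb. Of the genes of heart muscle, Myh6 had at most 1.70 CPM, while Tnnt2 had 24.3, 28.5 and 15.5 CPM at 8 Gy, against 13.6 and 21.6 CPM at 4 Gy. The thymus gene Rag1 reached 0.0833 CPM at most, while Dntt, which lymphoid precursors also express, had 1.57, 2.25 and 2.02 CPM at 8 Gy, against 0.370 and 0.543 CPM at 4 Gy. Krt8, a keratin of simple epithelia and carcinomas, had 708, 510 and 542 CPM at 8 Gy, against 582 and 577 CPM at 4 Gy. More genes had no read at 8 Gy (3930, 3854 and 3275) than at 4 Gy (2405 and 2345). Haemoglobin transcripts took 1.2, 2.41 and 2.15% of the CPM at 8 Gy, against 0.586 and 1.09% at 4 Gy, and mitochondrially encoded transcripts 3.62, 7.54 and 8.23%, against 4.99 and 6.54%. The running sheet numbers were 31 to 33 at 8 Gy and 26 to 27 at 4 Gy, so an effect of that order cannot be told apart from dose. No pair of replicates looked like 1 library deposited more than once: pairs correlated at 0.985 to 0.989 across genes, with at most 1 gene identical.

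More genes were lower than higher at 8 Gy. Of 17546 genes tested, 1330 passed the test (7.58%; limma on log2(CPM + 0.5), Benjamini-Hochberg adjusted p under 0.05). Of these, 288 (1.64%) were higher at 8 Gy than at 4 Gy and 1042 (5.94%) lower. Falls were also larger: 231 of the lower genes lay below 4 Gy by more than 4-fold on the fitted scale and 27 by more than 8-fold, against 10 and 0 of the higher genes beyond 4-fold and 8-fold. In every called gene the 3 libraries at 8 Gy lay on the same side of both libraries at 4 Gy, as they did in 21.8% of all genes on the higher side and 27.3% on the lower side. Over all genes tested the median was -0.01 on the log2 scale.

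The split between rises and falls depends on scaling, and the number of calls on single libraries. With quantile normalization 447 genes were higher and 847 lower, and with library medians set equal 607 and 943, so that rises made up 34.5 and 39.2% of the calls in place of 21.7%. The calls rest on both libraries at 4 Gy. Without 4 Gy replicate 1, 118 genes were called, and without replicate 2, 140, all of them among the 1330. Leaving out 8 Gy replicate 1, 2 or 3 gave 550, 431 or 693 calls, and leaving out IgG 0 Gy replicate 3, which enters only the estimate of spread, gave 2129. A total of 95 called genes were followed through 25 alternative fits (other scaling, pseudocount or filter, fewer groups, a replicate block, or a library left out). None changed direction, but as their groups do not overlap, only the scaling and block fits could have reversed them. In all 25, 20 stayed called: Ager, Aldh1a1, Cacna1c, Ccl21a, Cldn18, Col6a3, Cyp2b10, Emp2, Fbln5, Fcna, Il1b, Lpcat1, Ltbp2, Notch3, Pdgfrb, Rbpjl, Scnn1g, Serpine2, Spock2 and Srgn.

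**Figure D1:**
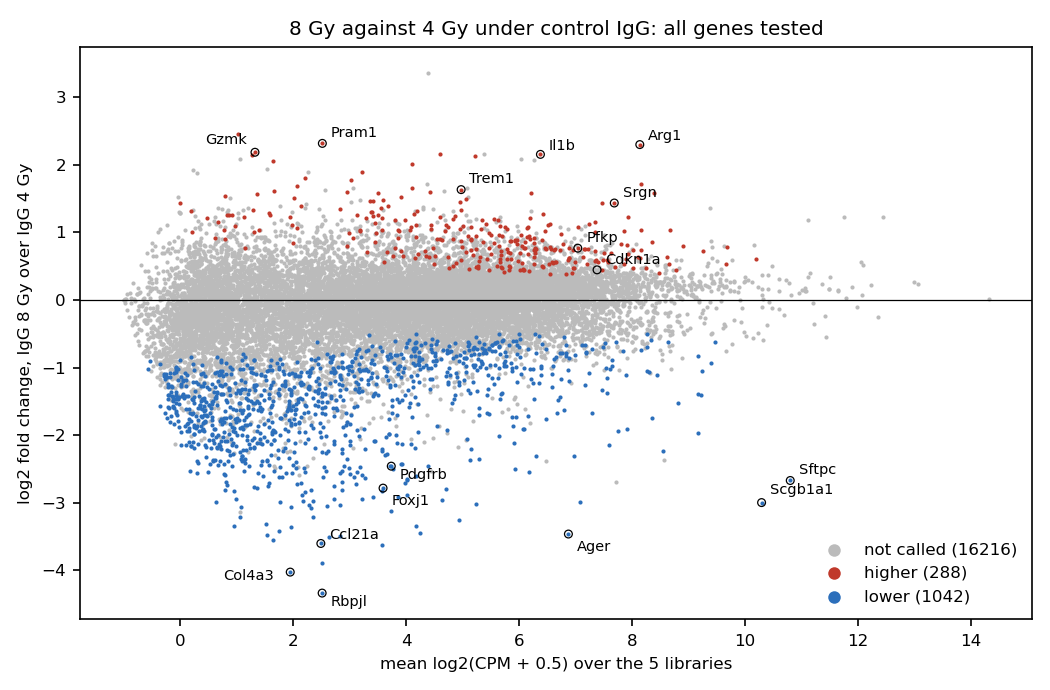
Each point is 1 of the 17546 genes tested, with its mean log2(CPM + 0.5) over the 5 libraries on the horizontal axis and its log2 fold change, IgG 8 Gy over IgG 4 Gy, on the vertical axis; red points are the 288 genes higher at 8 Gy, blue points the 1042 lower, grey points those not called. The blue points reach down to -4.34 (Rbpjl), while among the red ones none exceeds 2.46.

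Several of the largest falls were more than 8-fold. Rbpjl, which encodes a transcription factor related to the Notch effector RBPJ, had 1.1, 1.25 and 1.31 CPM at 8 Gy, against 32.3 and 36.2 CPM at 4 Gy, 28-fold higher at 4 Gy. Its log2 fold change of -4.34 ± 0.55 (SE) was the largest fall, although its span overlaps that of Matn4. Scnn1g, the gamma subunit of the epithelial sodium channel that clears alveolar fluid, had 0.776, 1.81 and 1.98 CPM at 8 Gy, against 23.2 and 34.3 CPM at 4 Gy (-3.89 ± 0.47, limma adjusted p = 0.000921). Cyp2b10, a cytochrome P450 of xenobiotic metabolism, had 2.67, 4.24 and 4.98 CPM, against 55.6 and 50.8 CPM at 4 Gy (-3.62 ± 0.54). In all 3 genes the doses were far apart, with no library of one dose near the other dose's range.

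Genes of the airway's secretory cells were lower throughout. All 17 genes of the club and secretory cell list had lower values in each 8 Gy library than in either 4 Gy library, as 27.3% of all genes did. Of the 17, 12 passed the test, against 5.94% of all genes. The median log2 fold change of the list was -2.21. Summed over the list, the level was 1010, 1545 and 1364 CPM at 8 Gy, against 9620 and 6710 CPM at 4 Gy. Scgb1a1 encodes the club cell secretory protein (mm10, chromosome 19, 9083636 to 9087958, minus strand). It had 414, 633 and 628 CPM at 8 Gy, against 5156 and 3712 CPM at 4 Gy. The log2 fold change was -3.0 ± 0.64 (limma, adjusted p = 0.015), and the highest 8 Gy library lay more than 5-fold below the lowest at 4 Gy. Scgb3a2, another airway secretoglobin, had 38.4, 74.3 and 70.6 CPM, against 620.4 and 357 CPM at 4 Gy (-2.99 ± 0.58, limma adjusted p = 0.0107). Both secretoglobins thus fell by about the same factor, 7.94 and 8.0 in mean CPM.

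Among the other members of the list, the retinal dehydrogenase gene Aldh1a1 had 31.3, 38.7 and 51.6 CPM at 8 Gy, against 178 and 126 CPM at 4 Gy (-1.90 ± 0.24, limma adjusted p = 0.0011) and stayed called in all 25 alternatives. Cckar, the cholecystokinin receptor A gene, had 1.04, 1.85 and 2.05 CPM, against 20.1 and 13.8 CPM at 4 Gy (-3.04 ± 0.46). Hp, which encodes the haemoglobin-binding protein haptoglobin, had 113, 168 and 104 CPM, against 465 and 502 CPM at 4 Gy (-1.94 ± 0.33). Cyp2f2, the P450 that makes club cells sensitive to naphthalene, had 139, 252 and 219.7 CPM, against 1368 and 754 CPM, a log2 difference of -2.36 ± 0.70 that missed the threshold (limma adjusted p = 0.0556). The number of called members was 1 without 4 Gy replicate 1 and 3 without replicate 2, and the adjusted p of Scgb1a1 reached 0.192 over the alternatives. In these bulk libraries fewer cells of a type and less RNA per cell cannot be told apart.

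The alveolar epithelium was lower in the same way. Of 13 alveolar type 1 genes 10 fell and none rose, and of 13 alveolar type 2 genes 8 fell and none rose. Over all genes 5.94% fell and 1.64% rose. The list medians were -2.81 and -1.97 on the log2 scale. Ager, the receptor gene that marks type 1 cells (chromosome 17, 34597862 to 34600936, plus strand), had 37.1, 52 and 45.6 CPM at 8 Gy, against 350.2 and 700.1 CPM at 4 Gy, 11.7-fold higher at 4 Gy in mean CPM (-3.46 ± 0.48, limma adjusted p = 0.00227). Spock2, a matrix proteoglycan gene, had 5.78, 7.94 and 6.8 CPM, against 58.2 and 107 CPM at 4 Gy (-3.45 ± 0.40). Aqp5, a water channel of type 1 cells, had 11.3, 10.7 and 9.34 CPM, against 75.4 and 93.8 CPM at 4 Gy (-2.95 ± 0.46). The 8 Gy libraries were close to each other in these genes, while 4 Gy replicate 2 was the higher of its pair. Emp2, a membrane protein gene of type 1 cells, and Pdpn, which encodes podoplanin, fell less, by 1.43 and 1.21 on the log2 scale. Cldn18, a tight junction gene of alveolar cells outside these lists, had 12.7, 20.9 and 21.2 CPM, against 74.8 and 117 CPM (-2.37 ± 0.26).

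Col4a3 and Col4a4 encode collagen chains that join with another chain into the network of the alveolar and glomerular basement membranes. The genes lie head to head on chromosome 1 of mm10, Col4a4 on the minus strand (82448423 to 82586849) and Col4a3 on the plus strand (82586921 to 82722059), with 71 bases between their starts. That shared start region is shown because both genes fell together. It is given as the RefSeq Col4a4 promoter (GRCm38.p6, chr1:82586800-82587099, minus strand, 250 bases before to 50 after the RefSeq start), with the 71 bases between the deposited gene starts in capitals.
Col4a4: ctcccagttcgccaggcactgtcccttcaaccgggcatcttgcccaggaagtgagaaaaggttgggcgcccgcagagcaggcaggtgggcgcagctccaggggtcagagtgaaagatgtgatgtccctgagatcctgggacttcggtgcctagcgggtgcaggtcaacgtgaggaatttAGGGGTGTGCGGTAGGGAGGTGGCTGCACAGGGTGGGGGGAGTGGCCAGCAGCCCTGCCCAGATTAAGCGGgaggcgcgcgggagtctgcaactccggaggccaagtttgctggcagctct
Col4a3 had 0.44, 1.11 and 0.841 CPM at 8 Gy, against 18 and 22.5 CPM at 4 Gy, 25.4-fold higher at 4 Gy in mean CPM (-4.02 ± 0.64, limma adjusted p = 0.0047). Col4a4 had 1.32, 2.08 and 2.3 CPM, against 27.7 and 25 CPM at 4 Gy, 13.9-fold higher at 4 Gy (-3.51 ± 0.58, limma adjusted p = 0.00568). Neither gene had an 8 Gy library within reach of the 4 Gy pair. The Col4a3 call ended without 4 Gy replicate 2 (adjusted p = 0.0526), and that of Col4a4 when either 4 Gy library was left out (at most 0.0689).

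Among the type 2 genes, the surfactant protein genes had the largest levels and wide gaps between the 4 Gy libraries. Sftpc, which encodes surfactant protein C, had 724, 1006 and 853 CPM at 8 Gy, against 3332 and 8848 CPM at 4 Gy (-2.67 ± 0.63, limma adjusted p = 0.0232). Sftpb, for surfactant protein B, had 312, 384 and 305 CPM, against 878 and 1928 CPM at 4 Gy (-1.97 ± 0.53, limma adjusted p = 0.0385). Sftpd, a lung collectin gene, had 56, 73.7 and 70.2 CPM, against 217 and 499.8 CPM at 4 Gy (-2.31 ± 0.42). In each, 4 Gy replicate 2 had more than 2-fold the level of replicate 1, and the 8 Gy libraries lay within a factor of 1.5 of each other. Slc34a2, the phosphate transporter of type 2 cells, fell by 2.15 and Abca3, the lipid transporter of lamellar bodies, by 0.72 on the log2 scale. Without 4 Gy replicate 1, 4 of the 8 type 2 calls were left, and without replicate 2, 0, while the type 1 calls went to 5 and 4. The adjusted p of Sftpc reached 0.176 and that of Sftpb 0.248.

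NKX2-1 is the homeodomain factor that keeps lung epithelial identity and is known to act on surfactant and secretoglobin promoters. Its core motif was searched as CTCAAG on both strands of the RefSeq promoters, and the Sftpb promoter is shown as an example of a type 2 gene that fell (GRCm38.p6, chr6:72304360-72304659, plus strand, motif in capitals).
Sftpb: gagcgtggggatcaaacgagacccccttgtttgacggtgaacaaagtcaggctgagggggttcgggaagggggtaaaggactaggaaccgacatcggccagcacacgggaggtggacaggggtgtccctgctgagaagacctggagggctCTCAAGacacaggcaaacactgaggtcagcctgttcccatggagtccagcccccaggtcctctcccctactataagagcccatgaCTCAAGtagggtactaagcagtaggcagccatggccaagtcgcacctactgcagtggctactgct
It holds the motif at 100 and 15 bases before the start. Of the 8 type 2 genes that fell, 6 had a promoter in the table and 3 of these held the motif, as did 3 of the 7 with a promoter among the 12 club and secretory genes that fell. Among all 27025 genes with a promoter 18.04% held it. A match describes letters and is no evidence of binding.

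Ciliated cells, which move mucus along the airway, followed. All 15 genes of their list had negative log2 fold changes and 7 fell, against 5.94% of all genes, with a median of -1.83. Foxj1, the master regulator of motile cilia, had 4.55, 5.32 and 5.42 CPM at 8 Gy, against 50.5 and 28.4 CPM at 4 Gy (-2.78 ± 0.51, limma adjusted p = 0.00807). The axonemal dynein gene Dnah5 had 0.431, 0.395 and 1.26 CPM, against 15.9 and 7.33 CPM at 4 Gy (-3.32 ± 0.61), and Hydin, a gene of the central pair of the axoneme, 0.259, 0.229 and 0.316 CPM, against 8.98 and 5.89 CPM (-3.34 ± 0.69). Unlike the surfactant genes, these were higher in 4 Gy replicate 1 than in replicate 2. Without 4 Gy replicate 1 none of the 7 stayed called, and without replicate 2, 2 did. The general epithelial gene Epcam had 5.61, 9.3 and 7.94 CPM at 8 Gy, against 26.2 and 26.7 CPM at 4 Gy (-1.76 ± 0.41, limma adjusted p = 0.0219).

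Vessels and connective tissue were lower in part. Of 20 genes of capillary and vascular endothelium, 19 were below both 4 Gy libraries in all 8 Gy libraries, as 27.3% of all genes were. The other gene lay above both in all 8 Gy libraries, at 1.34 on the log2 scale, and was not called. The median log2 fold change of the list was -1.55, and 4 genes passed the test: Aplnr, Emcn, Esam and Sox17. Of all genes 5.94% were called lower. Aplnr, the apelin receptor gene, was at -1.98 ± 0.34 and Emcn (endomucin) at -1.85 ± 0.43. The junction gene Esam was at -1.87 ± 0.50 and the transcription factor gene Sox17 at -1.74 ± 0.50. The fall in Sox17 ended in 18 of 25 alternatives. Without 4 Gy replicate 1, 1 endothelial gene stayed called, and without replicate 2, 0. Summed over the list, the level was 402, 621 and 493 CPM at 8 Gy, against 879.5 and 1034 CPM at 4 Gy. Ccl21a, the chemokine by which lymphatic vessels and lymphoid stroma attract dendritic cells and T cells, had 1.7, 1.52 and 1.51 CPM at 8 Gy, against 21.1 and 28.8 CPM at 4 Gy, and its p was the lowest of all genes (-3.60 ± 0.32, limma adjusted p = 0.000341). Its near-identical copies in the mouse genome may share these reads. Of 8 lymphatic genes, Pdpn was the only other one called, and the median was -0.62.

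Elastic fibre genes stood out within the stroma, and 3 genes of mural cells also fell. Pdgfrb, the receptor gene of pericytes, had 5.86, 6.65 and 6.27 CPM at 8 Gy, against 28.1 and 47.6 CPM at 4 Gy (-2.46 ± 0.28, limma adjusted p = 0.000793). Notch3, a receptor gene of vascular smooth muscle and pericytes, had 2.04, 3.57 and 3.0 CPM, against 13.9 and 16.3 CPM at 4 Gy (-2.23 ± 0.26). Cspg4, the pericyte proteoglycan NG2, had 1.4, 1.29 and 1.24 CPM, against 5.55 and 7.54 CPM at 4 Gy (-1.94 ± 0.29). The 8 Gy libraries lay close to each other in these genes, which were the only 3 called of 12 smooth muscle and pericyte genes (median -1.01). Of 12 elastic fibre genes 7 fell and none rose, against 5.94% and 1.64% of all genes, with a median of -1.33. Fbln5, a fibulin that assembles elastic fibres, had 0.798, 1.95 and 2.37 CPM, against 13.4 and 26.5 CPM at 4 Gy (-3.21 ± 0.39, limma adjusted p = 0.000949), and Mfap4, a microfibril protein gene whose span overlaps that of Mapk7, 3.37, 8.71 and 9.8 CPM, against 55.8 and 92.4 CPM (-3.34 ± 0.53). Eln, encoding elastin, had 26.4, 49.1 and 36.3 CPM, against 130.2 and 111 CPM (-1.72 ± 0.47, limma adjusted p = 0.041), a call that ended in 11 alternatives.

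A smaller share of the genes of fibroblasts and interstitial collagen fell than of the elastic fibre genes. Of 17, 4 fell, against 5.94% of all genes: Col6a3, Postn, Tcf21 and Sparc. Col6a3, a chain of microfibrillar collagen, had 23.6, 28.2 and 22.4 CPM at 8 Gy, against 70.2 and 81.2 CPM at 4 Gy (-1.60 ± 0.21, limma adjusted p = 0.00144). The list median was -0.76 and its summed level 5240, 5390 and 4915 CPM, against 5684 and 6193 CPM at 4 Gy. Of 15 genes of TGF-beta signalling 1 fell, Ltbp2, a latent TGF-beta binding protein gene, with 8.06, 12 and 10.7 CPM at 8 Gy, against 48.7 and 68.8 CPM at 4 Gy (-2.46 ± 0.26). Serpine2, a serine protease inhibitor, fell by 2.42 on the log2 scale, with 6.3, 7.13 and 8.64 CPM, against 32.9 and 52 CPM at 4 Gy. Left without 4 Gy replicate 1 or 2, the calls were 2 and 1 for collagen, 2 and 1 for elastic fibres and 3 and 2 for pericytes.

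**Figure D2:**
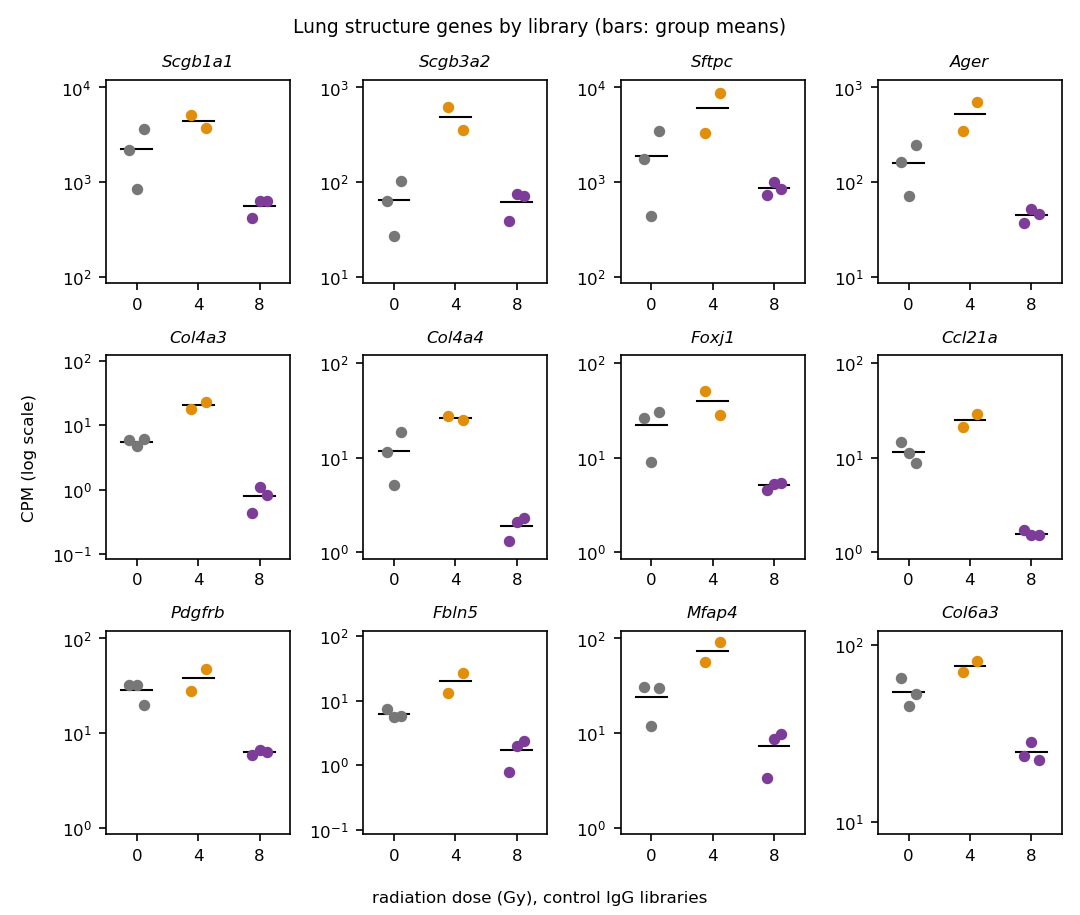
CPM on a log scale in each IgG library at 0, 4 and 8 Gy for 12 genes of lung epithelium, basement membrane, vessels and stroma; each point is 1 library and each bar the mean of its group. In every panel the 3 libraries at 8 Gy lie below both at 4 Gy, and in Col4a3 they lie at 0.440 to 1.11 CPM, against 18.0 and 22.5 CPM at 4 Gy.

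Among the genes that rose were Il1b and Arg1, both products of myeloid cells. Il1b, which encodes interleukin-1 beta (chromosome 2, 129364570 to 129371139, minus strand), had 132, 165 and 158 CPM at 8 Gy, against 29.8 and 37.7 CPM at 4 Gy, 4.5-fold higher in mean CPM. Its log2 fold change of 2.16 ± 0.26 had the lowest p of any rise (limma adjusted p = 0.000817), and it stayed called in all 25 alternatives; an antisense transcript, Il1bos, overlaps it. Arg1, the arginase that depletes arginine in suppressive and type 2 macrophages (chromosome 10, 24915221 to 24927484, minus strand), had 831, 456 and 401 CPM, against 93.8 and 124 CPM at 4 Gy (2.30 ± 0.41, limma adjusted p = 0.00748). Every 8 Gy library was above 4 Gy by more than 3-fold in both genes. The Arg1 call was lost when either 4 Gy library was left out, at an adjusted p of up to 0.112.

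Of 20 inflammatory cytokine genes 5 rose and 1 fell, against 1.64% and 5.94% of all genes. Osm, encoding oncostatin M, a cytokine of neutrophils and macrophages, had 19.7, 19 and 14.9 CPM at 8 Gy, against 5.07 and 7.18 CPM at 4 Gy (1.48 ± 0.29). Il1rn, the natural antagonist of interleukin-1, had 122, 129 and 121 CPM, against 49.9 and 65.7 CPM (1.11 ± 0.30), and Il33, an alarmin of barrier cells, 132, 151 and 177 CPM, against 92.1 and 89.2 CPM (0.74 ± 0.19). Il6 rose at a low level, with 1.66, 2.23 and 2.42 CPM, against 0.407 and 0.791 CPM at 4 Gy. The member that fell was Cxcl14, a chemokine made largely by epithelium and stroma, with 9.68, 8.36 and 8.11 CPM, against 17.2 and 27.8 CPM (-1.29 ± 0.25). Without 4 Gy replicate 1 only 1 riser stayed called, and without replicate 2, 2. The suppressive myeloid list gave 3 rises of 18 (Il1b, Arg1 and Trem1) and 1 fall, in Vegfa. Trem1, an activating receptor of neutrophils and monocytes, had 44.6, 45.1 and 58.6 CPM, against 14.3 and 16.8 CPM (1.63 ± 0.32). Acod1, the itaconate-producing enzyme of macrophages, had 43, 75 and 46.7 CPM, against 17.8 and 15.5 CPM, and fell just short of the threshold (limma adjusted p = 0.0500043).

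Most macrophage, eosinophil and neutrophil genes were higher without passing the test. Of 18 monocyte and macrophage genes 3 rose: Itgam, the CD11b integrin, had 538, 517 and 502 CPM at 8 Gy, against 169.7 and 177 CPM at 4 Gy (1.58 ± 0.33), and the Fc receptor genes Fcgr4 and Fcgr3 were at 0.78 ± 0.18 and 0.68 ± 0.19. All 3 calls were lost when either 4 Gy library was left out. Summed, the list had 9990, 8398 and 8853 CPM at 8 Gy, against 7077 and 10579 CPM at 4 Gy, so its total overlapped between doses. Ccl24, which attracts eosinophils, had 151, 137 and 74.1 CPM, against 25.3 and 57.5 CPM (1.58 ± 0.37). With Arg1 and Il33 it made 3 of 12 type 2 macrophage and eosinophil genes that rose, against 1.64% of all genes. Another member lay below both 4 Gy libraries in all 8 Gy libraries, at -1.53 on the log2 scale, and was not called. Of 13 neutrophil genes 2 rose, Il1r2, the decoy receptor for interleukin-1, at 1.20 ± 0.28 and Retnlg, encoding a resistin-like protein, at 1.60 ± 0.41. Another 2 had negative log2 fold changes and were not called, and the lower of these, at -2.18, was the largest change in the list. Neutrophil-related genes outside the list were among the largest rises: Padi4, which citrullinates histones, had 54.4, 40.3 and 37.8 CPM, against 10.5 and 8.3 CPM, the adaptor gene Pram1 14.6, 10.3 and 7.4 CPM, against 1.08 and 2.53 CPM, and Prtn3, encoding proteinase 3, 23.5, 13.9 and 11 CPM, against 3.75 and 3.77 CPM. In these 3 genes the lowest 8 Gy library lay more than 2-fold above the highest at 4 Gy. The calls of Il1r2, Retnlg, Padi4 and Prtn3 were lost when either 4 Gy library was left out, and that of Pram1 without 4 Gy replicate 1.

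Lcn2, encoding lipocalin 2, which neutrophils store and epithelium also makes, fell, with 44.3, 25.6 and 31.2 CPM at 8 Gy, against 71.5 and 290.4 CPM at 4 Gy (-2.12 ± 0.50), and the call ended without 4 Gy replicate 2. Fcna, encoding the macrophage lectin ficolin A, had 76.5, 58.8 and 66.3 CPM, against 16.1 and 13.7 CPM (2.13 ± 0.32, limma adjusted p = 0.00332); the antisense gene Fcnaos overlaps it. Srgn, encoding the granule proteoglycan serglycin, had 328, 295 and 298 CPM, against 105 and 122 CPM (1.44 ± 0.21). Both stayed called in all 25 alternatives. Thbs1 (thrombospondin 1) and Serpinb2 (plasminogen activator inhibitor 2) were among the largest rises, at 1.72 ± 0.49 and 2.01 ± 0.55, and lost their calls in 12 and 13 alternatives. The largest rise of all, in Pagr1b, is uncertain: the gene has a near-identical copy, Pagr1a, 4 Gy replicate 2 lay near 3 reads, and the call ended in 19 alternatives. None of 15 alveolar macrophage genes and none of 15 dendritic cell genes passed the test, with medians of 0.34 and 0.42 and 2 and 1 members at an unadjusted p under 0.05. The red cell list, none of whose 8 members was called or reached an unadjusted p under 0.05, had 11125.5, 22337 and 19983 CPM at 8 Gy, against 5300.4 and 10047 CPM at 4 Gy, and its part in the levels of leukocyte genes was not tested.

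Most lymphocyte genes lay higher at 8 Gy, with few single calls. All 20 T cell genes had positive log2 fold changes and 19 did not overlap between doses, where 21.8% of all genes did so on the higher side. Their median was 0.88, but 2 passed the test, against 1.64% of all genes on the higher side. The co-receptor gene Cd6 was among the 2. Cd6 had 31.9, 35.1 and 21.9 CPM at 8 Gy, against 13.6 and 12.7 CPM at 4 Gy (1.12 ± 0.32). Cd3e, a chain of the T cell receptor complex, had 46.8, 45.7 and 35.6 CPM, against 20.8 and 21 CPM (limma adjusted p = 0.0692), and Cd8b1, a CD8 chain, 49.2, 38.7 and 40.0 CPM, against 21.1 and 18.5 CPM (adjusted p = 0.074). Summed, the list had 777, 917 and 708 CPM at 8 Gy, against 431 and 439 CPM at 4 Gy. Of 18 cytotoxic genes 17 had positive log2 fold changes and 14 lay above both 4 Gy libraries in all 8 Gy libraries. Gzmk alone rose, with 6.66, 3.24 and 3.12 CPM, against 0.758 and 0.31 CPM, in a span that overlaps Esm1. Gzmb (granzyme B) had 85.2, 35.1 and 36.6 CPM, against 22.4 and 19.9 CPM (adjusted p = 0.0784), with 8 Gy replicate 1 well above the other 2. When either 4 Gy library was left out, no T cell or cytotoxic gene was called.

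Of 18 checkpoint and regulatory T cell genes 5 rose and none fell, against 1.64% and 5.94% of all genes. Of the 18, 16 lay above both 4 Gy libraries in all 8 Gy libraries, as 21.8% of all genes did. Foxp3, the defining factor of regulatory T cells, had 20.3, 19.8 and 17 CPM at 8 Gy, against 9.25 and 9.03 CPM at 4 Gy (1.02 ± 0.27, limma adjusted p = 0.0392); its span overlaps that of Ccdc22. Ctla4, the inhibitory receptor carried by regulatory T cells, had 11.7, 16.7 and 15.2 CPM, against 6.62 and 4.61 CPM (1.31 ± 0.31, adjusted p = 0.0232). Ccr8, a chemokine receptor of tumour regulatory T cells, was at 1.24 ± 0.29, the inhibitory receptor Tigit at 1.21 ± 0.30 and the checkpoint gene Vsir (VISTA) at 0.75 ± 0.21. None of these 5 stayed called when either 4 Gy library was left out, or with the 8 IgG libraries alone. Pdcd1, encoding PD-1, had 24.1, 33.9 and 40.0 CPM, against 14.9 and 10.1 CPM at 4 Gy, a log2 difference of 1.35 ± 0.48 that missed the threshold (adjusted p = 0.0955). Its ligand gene Cd274 had 87.3, 109 and 85 CPM, against 76.6 and 74.1 CPM (adjusted p = 0.363). Ptprc, the common leukocyte antigen CD45, had 247, 361 and 307 CPM at 8 Gy, against 190.1 and 178 CPM at 4 Gy (limma adjusted p = 0.237). No B or plasma cell gene of 16 was called (2 at an unadjusted p under 0.05), with a median of 0.59 and 15 positive log2 fold changes.

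**Figure D3:**
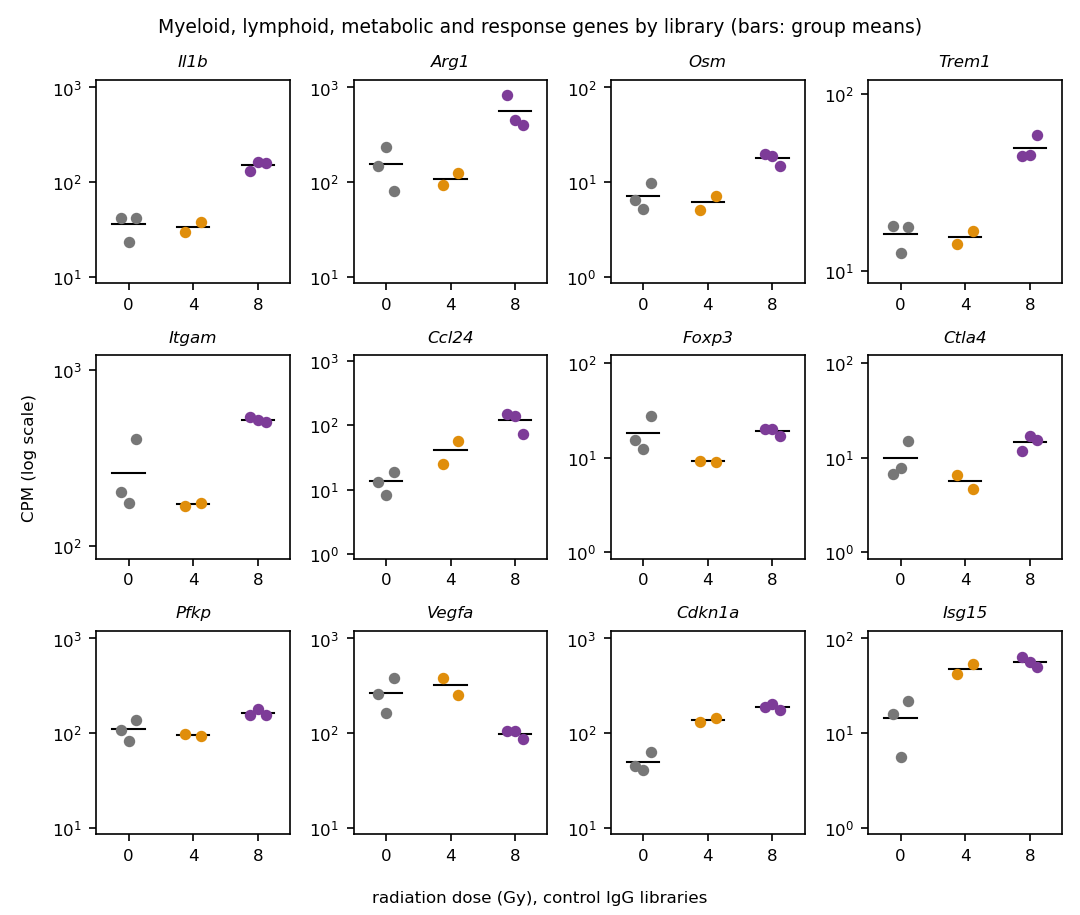
CPM on a log scale in each IgG library at 0, 4 and 8 Gy for 12 genes of myeloid and T cells, glycolysis and the radiation response; each point is 1 library and each bar the mean of its group. Il1b and Arg1 at 8 Gy lie above all libraries at 0 and 4 Gy, and in Cdkn1a and Isg15 both 4 and 8 Gy lie above all libraries at 0 Gy.

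Genes of glycolysis and the hypoxia response were called in both directions. Of the 20 on this list 5 rose and 1 fell, against 1.64% and 5.94% of all genes. The phosphofructokinase genes Pfkp and Pfkl catalyse the committed step of glycolysis. Pfkp had 157, 178 and 154 CPM at 8 Gy, against 96.8 and 93.9 CPM at 4 Gy (0.77 ± 0.17), and Pfkl 227, 166 and 162 CPM, against 114 and 103 CPM (0.75 ± 0.19). Hexokinase 2 (Hk2), lactate dehydrogenase A (Ldha) and the hypoxia-induced gene Ankrd37 were at 0.56 ± 0.14, 0.54 ± 0.15 and 0.79 ± 0.23. Vegfa, the vascular growth factor, which hypoxia also induces and alveolar epithelium makes in quantity, fell, with 104, 105 and 86 CPM, against 386 and 255 CPM (-1.67 ± 0.39, limma adjusted p = 0.0217). Of the 6 calls none was left without 4 Gy replicate 1 or without replicate 2, and with only the 8 IgG libraries Vegfa alone stayed. The Ldha promoter is shown because 3 of the 5 risers (Ankrd37, Hk2 and Ldha) hold ACGTG, a form of the core recognised by hypoxia-inducible factors, on either strand (GRCm38.p6, chr7:46845554-46845853, plus strand, motif in capitals).
Ldha: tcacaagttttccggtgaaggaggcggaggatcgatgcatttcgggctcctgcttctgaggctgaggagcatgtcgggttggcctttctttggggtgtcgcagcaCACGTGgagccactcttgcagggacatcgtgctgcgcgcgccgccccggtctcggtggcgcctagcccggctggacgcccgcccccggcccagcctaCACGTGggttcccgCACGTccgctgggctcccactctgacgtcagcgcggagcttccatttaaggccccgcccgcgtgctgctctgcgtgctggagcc
Matches lie between 145 and 34 bases before the RefSeq start, which falls inside the deposited span of the gene. Of all genes with a promoter, 21.78% hold the motif. Of 19 endoplasmic reticulum stress genes 3 fell, Manf, Pdia6 and Hyou1, at -0.76 ± 0.19, -0.61 ± 0.16 and -0.70 ± 0.19. These code for factors that help proteins fold during secretion, and none of the calls held with library medians set equal.

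The programmes that radiation is best known to induce were not called between the doses. None of 30 p53 targets passed the test in limma, with a median log2 fold change of -0.01; at an unadjusted p under 0.05, which 4437 of all 17546 genes reached, 3 were higher and 6 lower. Cdkn1a, encoding the cell cycle inhibitor p21 (chromosome 17, 29090976 to 29100727, plus strand), had 189, 201 and 176 CPM at 8 Gy, against 132 and 144 CPM at 4 Gy, a log2 difference of 0.45 ± 0.19 (limma adjusted p = 0.154). Its groups did not overlap, yet the gap was small. Btg2, another target, had 97.3, 142 and 102 CPM, against 64.2 and 63.1 CPM (adjusted p = 0.104), and Trp53 itself 64.6, 58.6 and 52 CPM, against 50.7 and 49 CPM (adjusted p = 0.583). None of 28 type I interferon genes and none of 26 interferon gamma genes passed, with medians of 0.17 in both, and at an unadjusted p under 0.05 there were 3 and 1. Isg15, a ubiquitin-like interferon product, had 63.4, 56.9 and 50.2 CPM, against 42.3 and 53.4 CPM (adjusted p = 0.735), and Ifng 4.24, 6.63 and 4.32 CPM, against 3.96 and 2.46 CPM (adjusted p = 0.613). A p above the threshold does not show that levels were equal.

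Genes of dividing cells were likewise not called: none of 26 of mitosis, 24 of DNA replication and 24 of double-strand break repair, with medians of 0.24, 0.15 and 0.12, and 4, 4 and 1 higher at an unadjusted p under 0.05. Mki67, a marker of cycling cells, had 217, 224 and 241 CPM at 8 Gy, against 222 and 194 CPM at 4 Gy. With library medians set equal, 3 mitosis, 2 replication and 2 NRF2 genes were called higher. All 15 genes of MHC class I and peptide loading, which display antigen to CD8 T cells, had negative log2 fold changes (median -0.40). Of these, 12 lay below both 4 Gy libraries in all 8 Gy libraries, as 27.3% of all genes did, but none was called (3 at an unadjusted p under 0.05). None of 10 MHC class II genes, 15 NRF2 antioxidant genes, 13 mitochondrially encoded genes or 11 muscle genes passed, with 0, 4, 0 and 1 at an unadjusted p under 0.05. Of 9 genes that attract neutrophils, and of 20 immediate early and glucocorticoid-induced genes, Lcn2 was the sole call. In a fit of the 5 libraries alone, 2 p53 targets were called higher and 5 lower.

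**Figure D4:**
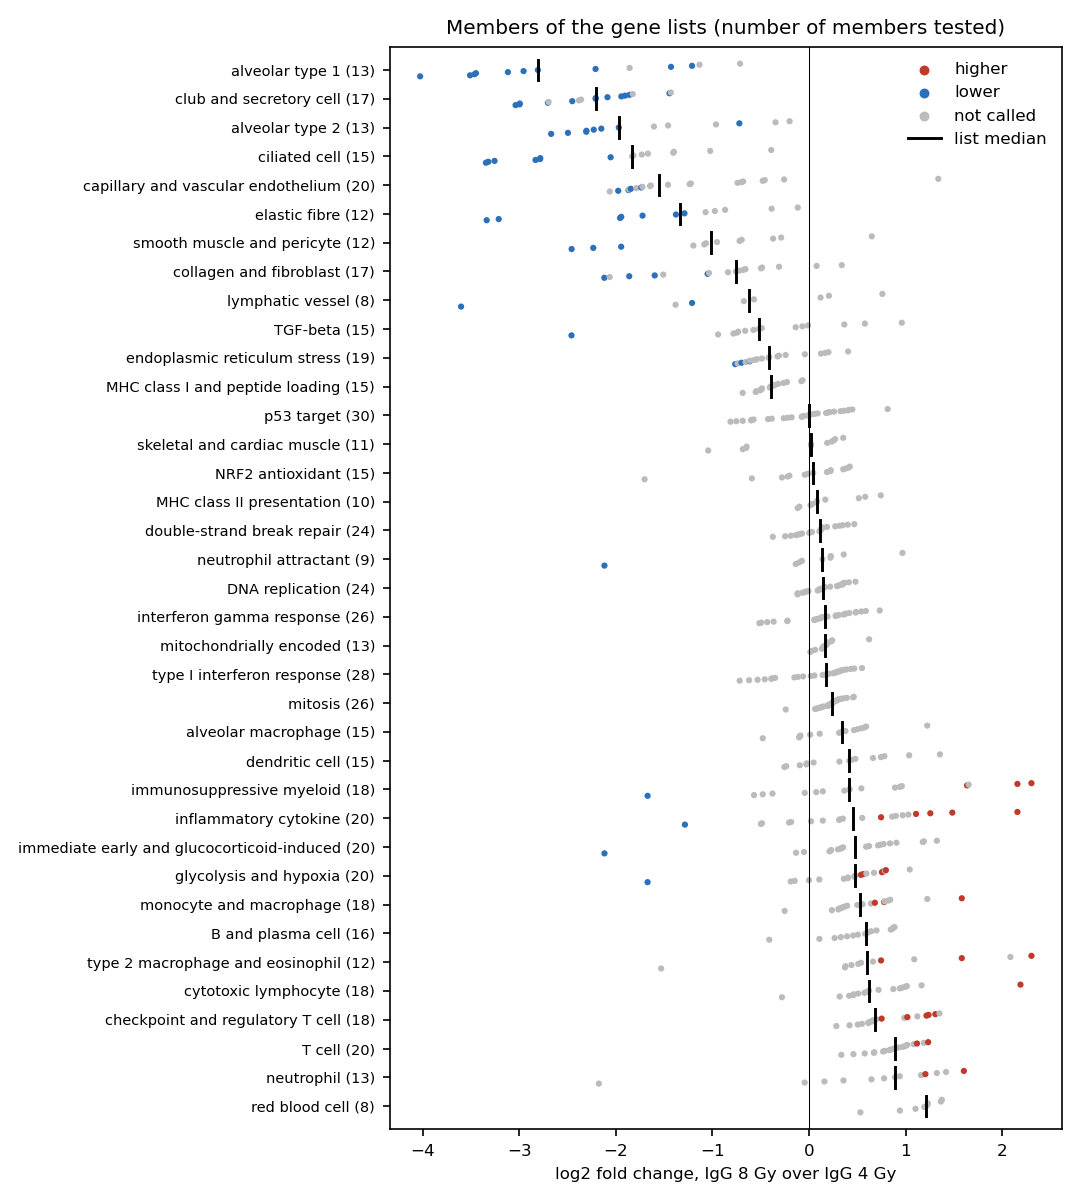
Log2 fold change, IgG 8 Gy over IgG 4 Gy, of each tested member of the 37 gene lists (1 point a gene; red higher, blue lower, grey not called; black bars the list medians; the number of members tested in brackets). Lists of lung structure lie at the top, with medians down to -2.81, the red blood cell list, with no member called, at the bottom with a median of 1.21, lists of T cells and neutrophils next to it with medians near 0.88, and those of p53 targets and interferon genes close to 0.

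The unirradiated IgG libraries place these differences, although they share the 8 and 4 Gy libraries with the comparison and so add no independent test of it. Scgb1a1 had 2170.4, 850.3 and 3668 CPM in the 0 Gy libraries, 5156 and 3712 CPM in the 4 Gy libraries and 414, 633 and 628 CPM in the 8 Gy libraries. Ager had 163, 71.6 and 246, then 350.2 and 700.1 and 37.1, 52 and 45.6 CPM in the same order of doses, and Col4a3 5.86, 4.68 and 6.03, then 18 and 22.5 and 0.44, 1.11 and 0.841 CPM. In all 3 genes, 4 Gy lay above and 8 Gy below every 0 Gy library. Of the 1042 genes lower at 8 Gy, 408 had both 4 Gy libraries above all 0 Gy libraries, as 6.37% of all genes did. In 789, all 8 Gy libraries lay below all 0 Gy libraries, as in 21.4% of all genes. As the same 4 and 8 Gy libraries chose the 1042, shares above those of all genes are in part built in. Of the 13 alveolar type 2 genes 9 lay above 0 Gy at 4 Gy and 1 below it at 8 Gy, while of 12 elastic fibre genes 3 and 9 did so. Against 0 Gy, the log2 difference of Scgb1a1 was 1.21 at 4 Gy and -1.79 at 8 Gy, and neither passed (limma adjusted p = 0.481 and 0.0597). Those of Ager and Col4a3 at 4 Gy, 1.80 and 1.78, did not pass either (limma adjusted p = 0.214 and 0.339). At 8 Gy they were -1.66 and -2.24 (limma adjusted p = 0.0276 and 0.0268), calls lost in 6 and 4 of 24 alternatives. The 0 Gy libraries were themselves uneven, replicate 2 having the lowest Scgb1a1, Sftpc and Ager.

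The rises had a different course. Il1b had 42.2, 23.6 and 42.3 CPM without irradiation, 29.8 and 37.7 CPM after 4 Gy and 132, 165 and 158 CPM after 8 Gy, and Arg1 149, 232 and 81.1, then 93.8 and 124 and 831, 456 and 401 CPM, so that only 8 Gy stood apart. For Foxp3 the values were 15.3, 12.2 and 27.6, then 9.25 and 9.03 and 20.3, 19.8 and 17 CPM, where 4 Gy lay below every other IgG library and 8 Gy lay within the range at 0 Gy. Of the 288 higher genes, 134 had all 8 Gy libraries above all 0 Gy libraries, as 5.37% of all genes did. In 174, both 4 Gy libraries lay below all 0 Gy libraries, as in 19.5% of all genes. Here too the choice of the 288 by the same 4 and 8 Gy libraries builds in part of the excess. Among the 20 T cell genes none lay above 0 Gy at 8 Gy and 12 lay below it at 4 Gy. Cdkn1a had 45, 40.5 and 62.8 CPM unirradiated, 132 and 144 CPM after 4 Gy and 189, 201 and 176 CPM after 8 Gy, with log2 differences from 0 Gy of 1.5 at 4 Gy and 1.95 at 8 Gy (limma adjusted p = 0.0213 and 0.000209). Of 28 type I interferon genes 25 lay above 0 Gy at 4 Gy and 23 at 8 Gy.

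The same dose step could be read in the anti-PD-1 libraries, which share none with the IgG comparison. There, 2 of the 3 libraries at 4 Gy (replicates 2 and 3) stood apart from the other 14 of the study on the first principal component, at -81.5 and -98.3, against -46.8 to 51.9. Counts and medians of the genes called under IgG are given with and without them. Of the 1042 genes lower under IgG, 948 (91.0%) were also lower at 8 Gy than at 4 Gy under anti-PD-1, where 44.6% of all genes were, and 678 passed the test there in that direction, where 17.5% of all genes did. Their median log2 fold change was -1.01 under anti-PD-1 and -1.42 under IgG. Without the 2 libraries, 960 of 1034 (92.8%) had that sign, where 47.8% of all genes did; none passed, and 645 had an unadjusted p under 0.05 in that direction, with 3386 of all genes in either. Of the 288 genes higher under IgG, 212 (73.6%) had the same sign under anti-PD-1, where 55.4% of all genes did, and 58 passed, where 24.4% of all genes did. Without the 2 libraries 155 (53.8%) had the sign, where 52.2% of all genes did, none passed and 30 had an unadjusted p under 0.05. The median of these 288 was 0.19, and 0.04 without the 2 libraries, against 0.87 under IgG.

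Single genes showed both patterns. Scgb1a1 had 701, 3891 and 2199 CPM with anti-PD-1 at 8 Gy, against 6866, 6484 and 12303 CPM with anti-PD-1 at 4 Gy, and Ager 60.8, 194 and 128 CPM, against 597, 628 and 584 CPM. Their log2 differences were -2.17 and -2.39, and -1.92 and -2.37 without replicates 2 and 3 at 4 Gy. Il1b had 45, 59.7 and 58 CPM at 8 Gy, against 50.1, 36.1 and 47.7 CPM at 4 Gy, where the doses overlapped. Arg1 rose under anti-PD-1 too, by 1.51 on the log2 scale (limma adjusted p = 0.00689). Without replicates 2 and 3 at 4 Gy its difference was 1.10, resting on replicate 1 alone at 4 Gy, and the gene was not called. Cdkn1a had 125, 136 and 129.9 CPM at 8 Gy, against 189, 228 and 281 CPM at 4 Gy, with 8 Gy below 4 Gy in all libraries, opposite to IgG. Without replicates 2 and 3, the level at 4 Gy rests on the 189 CPM of replicate 1. Whether the dose step differed between antibodies was tested as an interaction. No gene passed (limma, lowest adjusted p = 0.0604), while 4801 (27.4%) had an unadjusted p under 0.05, and 1778 without the 2 libraries that stood apart. Il1b (log2 difference of the dose steps, IgG minus anti-PD-1, 1.87 ± 0.34) and Cdkn1a (1.26 ± 0.25) were among those at the lowest adjusted p, with Vcam1, an adhesion molecule of activated endothelium, at -1.93 ± 0.31. Single libraries decided this: interaction calls numbered 1225 when IgG 0 Gy replicate 2 was left out, 1541 when IgG 0 Gy replicate 3 was, and 3380 when anti-PD-1 4 Gy replicate 1 was. With replicates 2 and 3 of that last group left out together there were 0.

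**Figure D5:**
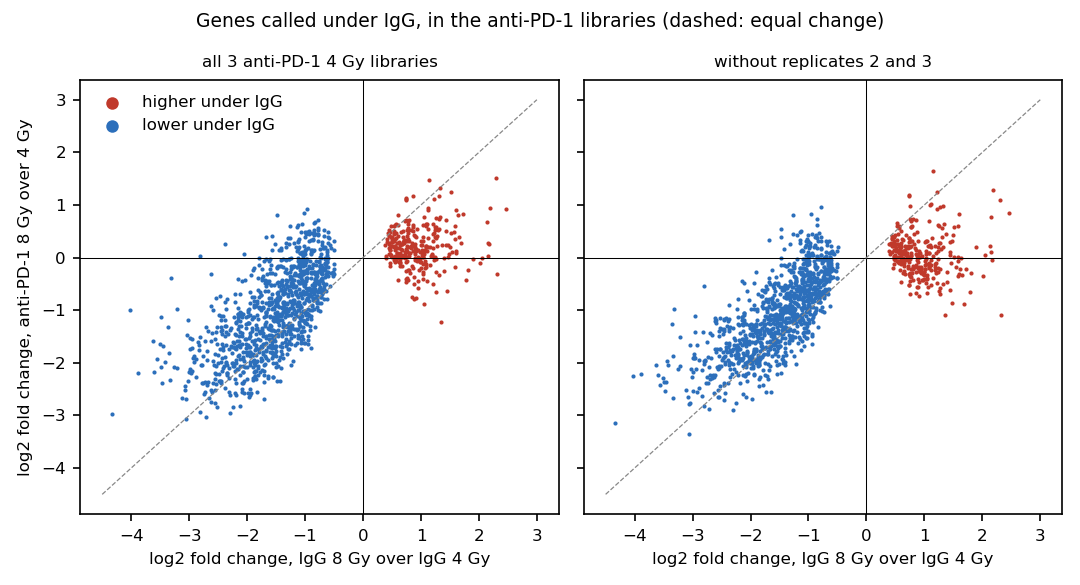
Log2 fold change of the 8 Gy over the 4 Gy libraries under IgG (horizontal) and anti-PD-1 (vertical) for the genes called under IgG (red higher, blue lower), with all 3 anti-PD-1 4 Gy libraries on the left and without replicates 2 and 3 on the right; the dashed line marks equal change. Most blue points lie below 0 under anti-PD-1 in both panels (91.0 and 92.8%), while the red points are spread about 0.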

How the data were processed

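RNA of tumour-bearing lungs was sequenced in 16 libraries (TruSeq RNA kit, 1 µg of total RNA, per the labels' protocols). STAR, Partek and the build mm10 are named in the submitters' processing notes, without versions; annotation, counting and strand setting were not given. The authors deposited CPM values for 30095 genes with 1e-04 added. Values under 100 reads were whole reads in 57.7 to 63.7% of cases (tolerance 0.02), so count models could not be applied. Intervals of counting error were not computed; the limit of 3 reads covers counting error only.

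From these values, log2(CPM + 0.5) of 17546 genes, those reaching 1 CPM in 2 libraries or more, was fitted with limma 3.58.1 (trend and robust empirical Bayes; R 4.3.3, version 1.17.8 of data.table) as the means of 6 groups over all 16 libraries, with Benjamini-Hochberg adjustment over all genes tested. Fold changes on this scale understate those of low genes. With 3 against 2 libraries no permutation p can go below 0.1, so none is given. The procedure was tested on simulated data. The 37 gene lists (638 of 639 symbols in the table) and the named genes were chosen with earlier results of these data known. The rule for names took the 12 largest changes and 5 lowest p in each direction among genes whose log2 values averaged 1 or more, up to 5 members per list, 5 genes of the interaction in each direction, and always Trp53, Cdkn1a, Mki67, Pdcd1, Cd274, Ifng and Scgb1a1. Il1rn, Eln, Ldha, Ptprc and Isg15 were added after their values were seen; Sftpb, Sftpc, Cyp2f2 and Epcam belong to the markers of the tissue check.

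Names and positions of 17158 genes equal those of GENCODE M21, once the deposited stop is moved back by 1 base. Dates stood in place of 25 symbols. Promoters came from RefSeq (GRCm38.p6, 250 bases before to 50 after the start). Without strand, reads of overlapping genes may be mixed. Beside those named in the report, and besides overlaps with predicted genes, this touches Cacna1c (Dcp1b), Dnah3 (Lyrm1), Prtn3 (Plppr3), Serpinb2 (Serpinb10), Vsir (Cdh23), Pfkp (Pitrm1), Ankrd37 (Ufsp2), Pdia6 (Atp6v1c2) and Manf (Dcaf1). Values of 1 gene are not reported here.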

Additional observations from a re-analysis of the deposited data

How the results depend on the processing

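The fit as reported called 1330 genes (288 higher, 1042 lower). Restricting the fit to the 5 libraries compared gave 3218 (973 higher, 2245 lower), and to the 8 IgG libraries 705 (119 and 586). Higher genes numbered 447 with quantile normalization, 607 with library medians set equal and 162 with no filter on low values. With each of the 16 libraries left out in turn the total ran from 118 to 2129, higher genes from 6 to 537, lower genes from 112 to 1592 and interaction calls from 0 to 3380; without anti-PD-1 8 Gy replicate 2 the higher genes numbered 185. The cause of these differences was not tested, beyond the fewer samples in each fit. Pseudocounts of 0.1 and 1 and a fit without anti-PD-1 4 Gy replicates 2 and 3 kept all 4 counts within 1.5 times.

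The replicate numbers of the titles did not pair the samples: deviations of same-numbered 8 and 4 Gy libraries correlated at -0.09 and 0.14. The fit with the replicate number as a block called 1010 genes, 147 higher and 863 lower, of which 943 were also called without it.

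Of 95 called genes followed, 64 lost their call without 4 Gy replicate 1, 67 without replicate 2 and 56 in both cases; 0 changed direction. At a depth of 46400000 to 64500000 reads, 3 reads are the least taken as detection; Pagr1b in 4 Gy replicate 2 is near it. The part of depth in the number of calls was not tested.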

Other observations

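The deposited table holds rows for transgene sequences, although the labels give only the strain C57BL/6. The CREERT2 row had 29.5, 32.2 and 25.2 CPM at 8 Gy, against 23.9 and 19.5 CPM at 4 Gy, and the RFP row 16.8, 14.5 and 8.36 CPM at 8 Gy, against 13.9 and 15.3 CPM at 4 Gy. The GFP row had at most 0.151 CPM at 8 Gy and 0.0466 CPM at 4 Gy. Which cells carried these sequences is not given in the labels.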
